A study of Mus musculus with 11 samples.

Results

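The genes described here encode the chains of the mouse major histocompatibility complex (MHC) and the machinery that loads antigen peptides onto them. They were chosen by name, as every symbol that starts with H2- (44 symbols) together with B2m, Cd74, Ciita, Tap1, Tap2 and Tapbp, with no filter on expression. These are 50 of the 23444 rows of the deposited table. By name and role, 33 belong to class I, 11 to class II, 3 to class I peptide loading (Tap1, Tap2, Tapbp) and 1 is the class II regulator Ciita. The other 2, H2-Ke2 and H2-Ke6, carry an H2- symbol and encode no MHC chain: GENCODE lists H2-Ke2 as the prefoldin subunit Pfdn6, and H2-Ke6 is a hydroxysteroid dehydrogenase. At least 1 FPKM (fragments scaled to transcript length and to sequencing depth) in at least 2 of 11 libraries was reached by 31 of the 50, and these are among the 11442 genes tested.

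The question of the study is whether inhibiting FOS and Dusp1 chemically has the effect of deleting both genes in blood progenitors with BCR/ABL, an oncogenic kinase fusion known from chronic myeloid leukaemia. Its 11 RNA-seq libraries were made from bone marrow cells of C57BL/6 mice selected on Kit (CD117) with magnetic beads and cultured in FLT3, IL-6, IL-3 plus mSCF, the mouse stem cell factor. Cells were transduced with a BCR/ABL-IRES-YFP retrovirus and sorted as positive cells, and the drugs acted for 4 h. The 4 groups with 2 libraries each are wild-type BCR/ABL cells that were untreated, exposed to imatinib (which blocks the kinase activity of BCR/ABL), to DFC+BCI (described as the inhibitors of FOS and Dusp1), or to imatinib+DFC+BCI. The 3 groups of 1 library are a vector control, untreated BCR/ABL cells labelled c-Fos-/-Dusp1-/-, and such cells with imatinib; the protocol names ROSACreERT2c-Fosfl/fl /Dusp1-/- mice as their source, in which a tamoxifen-inducible Cre can remove floxed Fos. How the vector control was made, whether Cre was induced, the age and sex of the mice and whether duplicates came from separate animals are not given in the sources used here. If duplicates shared an animal, the p-values below measure only the spread between such samples, which may be technical. Dose units in the labels are in doubt and doses are left out.

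Class I molecules present peptides from inside the cell to CD8 T cells. They pair a heavy chain (H2-K1 and H2-D1 are the classical ones in C57BL/6) with beta-2 microglobulin (B2m). The TAP transporter (Tap1 and Tap2) and tapasin (Tapbp) then help to load the peptide. The H2-Q, H2-T and H2-M genes encode further, non-classical class I chains, such as Qa-2 from the H2-Q7 and H2-Q9 genes and Qa-1 from H2-T23. Class II molecules (H2-A and H2-E, each an alpha and a beta chain) present peptides taken up from outside the cell to CD4 T cells. Their chains associate with the invariant chain Cd74, H2-DM exchanges the peptide and H2-O inhibits H2-DM. Ciita is the coactivator that switches class II promoters on, through factors bound to the X box and to a CCAAT sequence known as the Y box. C57BL/6 mice are known to make no H2-E alpha chain.

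The 5′ regions of 6 members whose results are described below are shown first. With DFC+BCI, H2-Aa fell and H2-Q4 rose, while H2-Eb1, H2-K1 and H2-D1 did not pass the test. Whether the changes differed between these genes was not tested. The confidence intervals of the fold changes overlapped between H2-Aa and H2-Eb1, and between H2-Q4 and both H2-K1 and H2-D1. H2-Q7 was among the H2-Q genes with higher values in BCR/ABL than in vector. Each sequence runs 5′ to 3′ in the direction of the gene from 250 bases before to 50 after a RefSeq start (GRCm38.p6). Capitals mark letters of the X box core (ACNGATGA), of a CCAAT box (GATTGG, which reads CCAATC from the other strand), of the kB site (GGGATTCCC, bound by NF-kB and known as enhancer A of class I genes) and of the cyclic AMP response element CRE (TGACGTCA, the same on both strands). Both strands were searched, and no marks of different motifs overlap in these 6 sequences. The windows are chr17:34287774-34288073 (minus strand) for H2-Aa, chr17:34305617-34305916 (plus) for H2-Eb1, chr17:34000284-34000583 (minus) for H2-K1 from the second of 2 listed starts, chr17:35262844-35263143 (plus) for H2-D1, chr17:35379367-35379666 (plus) for H2-Q4 and chr17:35438905-35439204 (plus) for H2-Q7.
H2-Aa: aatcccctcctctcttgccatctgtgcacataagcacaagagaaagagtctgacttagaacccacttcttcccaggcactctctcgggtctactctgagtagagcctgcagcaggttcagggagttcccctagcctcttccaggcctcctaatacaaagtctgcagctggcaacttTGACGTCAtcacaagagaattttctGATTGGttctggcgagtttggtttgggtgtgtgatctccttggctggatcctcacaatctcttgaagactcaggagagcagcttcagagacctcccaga
H2-Eb1: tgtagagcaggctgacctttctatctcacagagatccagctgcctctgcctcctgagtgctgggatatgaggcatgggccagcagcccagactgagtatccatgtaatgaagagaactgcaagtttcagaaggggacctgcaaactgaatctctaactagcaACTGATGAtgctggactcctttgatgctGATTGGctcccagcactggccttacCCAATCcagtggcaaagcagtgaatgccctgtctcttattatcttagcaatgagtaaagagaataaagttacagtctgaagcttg
H2-K1: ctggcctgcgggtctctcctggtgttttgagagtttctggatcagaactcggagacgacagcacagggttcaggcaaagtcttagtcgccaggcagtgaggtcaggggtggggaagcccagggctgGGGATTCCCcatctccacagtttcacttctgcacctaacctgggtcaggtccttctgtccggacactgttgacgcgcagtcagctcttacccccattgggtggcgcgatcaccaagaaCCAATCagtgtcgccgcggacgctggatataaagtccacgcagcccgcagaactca
H2-D1: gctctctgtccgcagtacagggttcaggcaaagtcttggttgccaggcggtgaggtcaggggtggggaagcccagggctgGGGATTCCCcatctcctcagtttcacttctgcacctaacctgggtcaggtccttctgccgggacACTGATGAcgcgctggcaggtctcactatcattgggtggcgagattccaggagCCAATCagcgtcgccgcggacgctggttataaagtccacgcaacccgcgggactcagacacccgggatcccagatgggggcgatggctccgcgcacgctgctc
H2-Q4: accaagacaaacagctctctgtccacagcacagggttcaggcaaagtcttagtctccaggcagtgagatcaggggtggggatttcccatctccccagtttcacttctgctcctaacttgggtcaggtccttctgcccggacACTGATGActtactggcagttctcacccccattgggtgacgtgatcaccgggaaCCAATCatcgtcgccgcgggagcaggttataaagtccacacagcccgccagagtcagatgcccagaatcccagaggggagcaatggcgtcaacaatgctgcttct
H2-Q7: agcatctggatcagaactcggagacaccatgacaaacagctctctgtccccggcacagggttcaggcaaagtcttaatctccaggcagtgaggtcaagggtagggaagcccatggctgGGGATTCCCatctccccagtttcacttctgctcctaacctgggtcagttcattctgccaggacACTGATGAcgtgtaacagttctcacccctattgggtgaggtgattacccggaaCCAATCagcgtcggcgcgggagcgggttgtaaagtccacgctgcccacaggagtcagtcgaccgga

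RefSeq promoters of that table matched 35 of the 50 members and 19 of the 31 tested. Promoters on chromosome 18 were left out of this matching, so Cd74, which lies there, is not in the counts. A gene was counted where the promoter of any listed start held the letters, while the shares of all promoters given below are per promoter. Among the 7 tested class II genes with a promoter, 7 held the CCAAT letters and 4 the X box letters (H2-DMb1, H2-DMb2, H2-Eb1, H2-Oa). The CRE letters occurred in H2-Aa. H2-DMa held CCAAT only in the promoter of its second listed start, from -199 to -194. Among the 8 tested class I genes with a promoter, 7 held CCAAT, 4 the X box (H2-D1, H2-M3, H2-Q4, H2-Q7) and 3 the kB site (H2-D1, H2-K1, H2-Q7). The interferon-stimulated response element ISRE (GAAANNGAA) was matched in B2m, H2-T22 and H2-T23. Of all 32851 promoters in the table, 16.1% held the CCAAT letters, 2.55% the X box, 0.353% the kB site, 8.56% the ISRE and 1.79% the CRE. In H2-Q4 the X box letters lay from -109 to -102 and CCAATC from -55 to -50 relative to the start, close to -106 to -99 and -53 to -48 in H2-D1. In H2-Eb1 the X box lay from -88 to -81 and a CCAAT box from -60 to -55, and in H2-Aa the CRE lay from -74 to -67 and the CCAAT box from -49 to -44. The spellings of the X box, kB site and ISRE were settled after matches of other spellings had been seen, and the X box count depends on the choice. With the letters GNNACNGAT, present in 7.82% of all promoters, the X box was matched in 5 class I genes, H2-K1 added, and in 4 class II genes, with H2-Ob in place of H2-DMb2. A longer X box spelling, tried first, left out both H2-DMb2 and H2-Ob. The kB site and ISRE were first searched with 1 more letter each and shortened, and the genes matched were the same. These are matches of letters and say nothing of binding.

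Column totals of the deposited FPKM ran from 459559 to 529427, with 10763 to 10987 genes at 1 FPKM or more in a library; read depth is unknown. The check of the labels came out against them for the deletion. Fos was 5.09 and 4.81 FPKM in the untreated BCR/ABL libraries and 21.6 and 15.9 in the libraries labelled deleted, untreated and with imatinib. Dusp1 was 8.22 and 8.46 in untreated BCR/ABL and 35.7 and 28.1 in the libraries labelled deleted. In the wild-type imatinib libraries Fos was 6.79 and 7.42 FPKM and Dusp1 7.56 and 8.63 FPKM. With DFC+BCI, with or without imatinib, Fos was 28.0 to 32.4 FPKM and Dusp1 101.9 to 132.8 FPKM. The vector library had 124.9 FPKM of Fos and 16.9 FPKM of Dusp1. Reads from exons outside a deleted part would still count, and whether that is so here was not tested. The libraries with the c-Fos-/-Dusp1-/- label are called labelled deleted throughout. Of the markers fixed for other cells, Ms4a1, Pax5 and Ebf1 of B cells stayed under 0.15 FPKM in every library. Cd79b, Blnk and Cd22 of the same list reached 14.0, 5.76 and 3.75 FPKM in the vector library. Csf1r and Ly6c2 of monocytes were abundant (56.6 to 265.8 and 610.9 to 1211 FPKM). Cx3cr1 and C1qa of the monocyte list were low in the wild-type BCR/ABL libraries (0.152 to 0.473 and 2.39 to 5.47 FPKM). Kit itself, the selected marker, was 5.80 to 34.5 FPKM. In bulk RNA, fewer cells of a type and less RNA per cell cannot be told apart.

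The most abundant member was B2m, which had 2441 and 2569 FPKM in the untreated BCR/ABL libraries (first and second). B2m lay between 1750 FPKM, in the vector library, and 2569 FPKM over all 11 libraries. H2-D1 came next with 664.4 and 531.1 FPKM and H2-K1 with 684.2 and 549.7 FPKM in untreated BCR/ABL. The ranges of H2-D1 and H2-K1 overlapped, so their order was not resolved, and both stood below B2m in every library. The class II chain Cd74 had 602.7 and 498.3 FPKM there, overlapping both, and exceeded both in the vector library. Among the non-classical chains in untreated BCR/ABL, H2-T23 (Qa-1) had 112.6 and 93.2 FPKM and H2-Q4 had 96.2 and 82.2 FPKM, and these also overlapped. H2-Q7 followed with 68.2 and 57.1 FPKM and H2-Q8 with 64.0 and 44.0 FPKM. H2-M3, which presents formylated peptides, had 10.98 and 10.4 FPKM, and H2-T10 had 3.90 and 3.32 FPKM. Tapbp had 143.1 and 125.2 FPKM, Tap1 99.96 and 82.4 FPKM, and Tap2 70.7 and 50.5 FPKM; the values of Tap1 and Tap2 did not overlap. H2-L, a chain that the C57BL/6 haplotype is known to lack, was listed at 11.8 to 27.3 FPKM over the 11 libraries, and what those values hold was not tested.

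Class II transcripts were present in every library, in cells selected on Kit. In untreated BCR/ABL, Cd74 had 602.7 and 498.3 FPKM, H2-Aa (A alpha chain) 255.9 and 237.2 FPKM, H2-Ab1 (A beta chain) 211.1 and 162.8 FPKM, and H2-Eb1 (E beta chain) 119.7 and 92.1 FPKM. Their order Cd74, H2-Aa, H2-Ab1, H2-Eb1 held in every library and no neighbours overlapped within untreated BCR/ABL. The peptide exchange chains were lower, with 41.1 and 33.4 FPKM for H2-DMa, 27.0 and 21.9 FPKM for H2-DMb1, and 16.7 and 14.1 FPKM for H2-DMb2. The H2-O chains had 7.25 and 6.08 FPKM (H2-Oa) and 1.44 and 1.29 FPKM (H2-Ob), and Ciita had 5.20 and 4.83 FPKM. H2-Ea-ps, the E alpha locus, was listed at 0 in 9 libraries and at no more than 0.0566 FPKM in the others.

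Of the 19 members not tested, 8 were listed at 0 in all libraries (H2-M1, H2-M9, H2-M11, H2-M10.1, H2-M10.3, H2-M10.4, H2-M10.5 and H2-M10.6), and 18 never reached 1 FPKM. The exception was H2-M2, which had 1.58 FPKM in the vector library and 0.113 to 0.511 FPKM in the other libraries. H2-Q6 was listed at no more than 0.000261 FPKM in every library, although it shares 32.0% of its 50-base stretches with other genes, the largest part with any 1 gene, 13.9%, being shared with H2-Q7. Such sharing lets the authors' estimation divide reads between copies. It was 36.5% for H2-Q5, 34.5% for H2-T22, 32.9% for H2-T10, 26.4% for H2-Q7, 24.8% for H2-DMb2, 22.6% for H2-DMb1 and 21.8% for H2-Q4, so single values of these genes are uncertain. It was 12.8% for H2-D1, 9.63% for H2-K1, 9.38% for H2-K2, 3.17% for H2-T24 and 0.488% for H2-Aa, and 0 for B2m, Cd74, H2-Ab1, H2-Eb1, H2-Ob and Ciita. H2-Ke6 shares 70.5% with Gm20427. H2-Q8, H2-Q9, H2-L and H2-T9 have no entry under those symbols in GENCODE vM21 and their sharing was not computed.

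**Figure D1:**
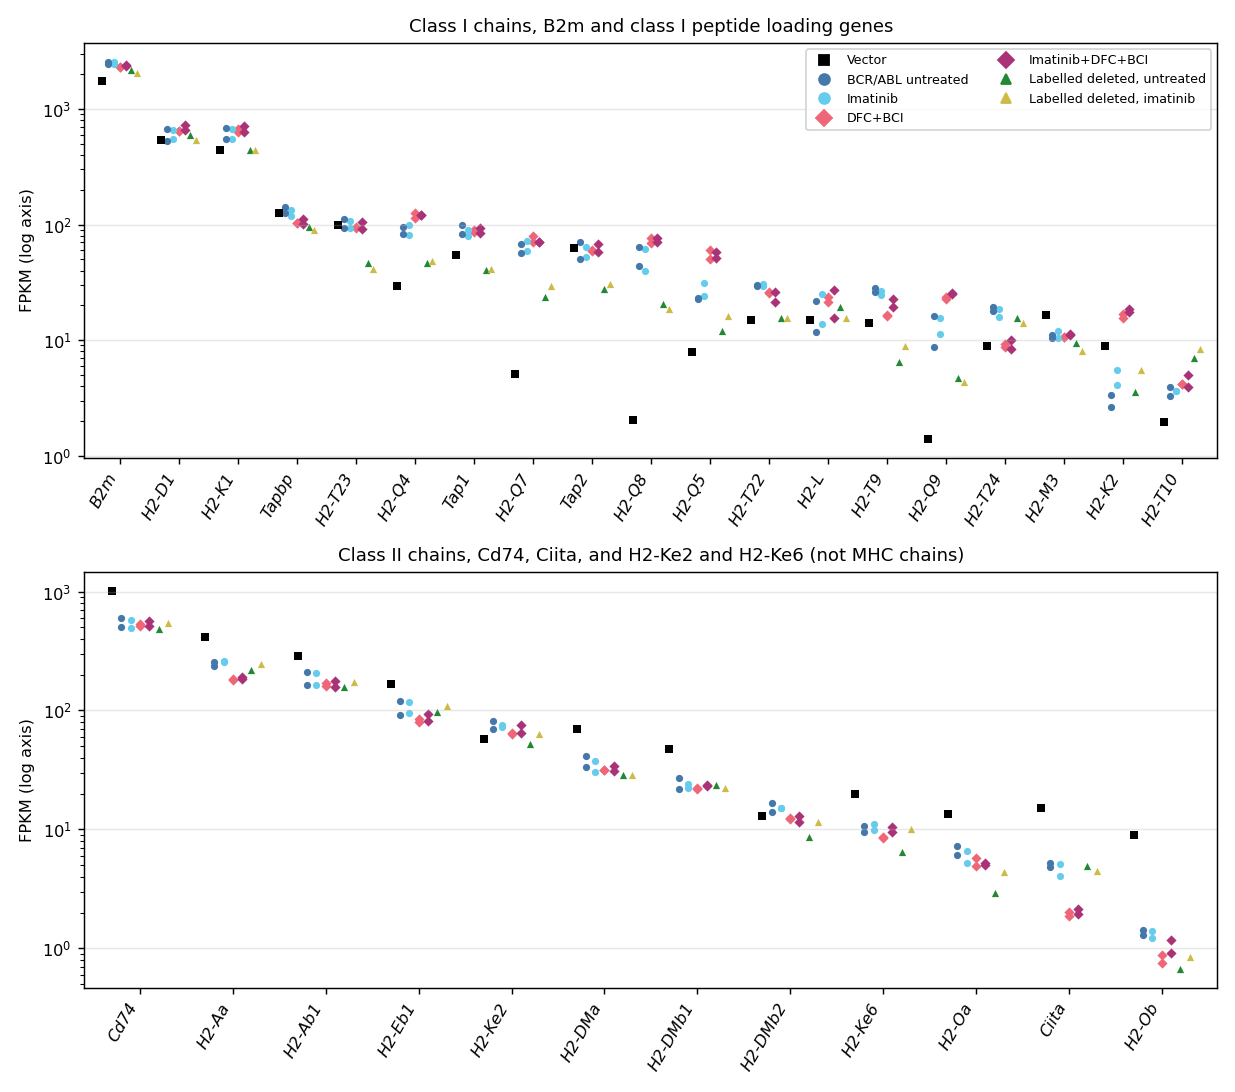
FPKM on a log axis of the 31 tested members, 1 symbol per library, coloured by group and ordered by mean level; the upper panel holds class I and peptide loading genes and the lower panel class II genes, Ciita, H2-Ke2 and H2-Ke6. The vector library (black squares) lies lowest for H2-Q4, H2-Q7, H2-Q8 and H2-Q9 and highest for Cd74, H2-Aa, H2-Ab1, H2-Eb1, H2-Ob and Ciita, with H2-Q8 at 2.05 FPKM and Ciita at 15.3 FPKM.

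The summed FPKM of class I chains and B2m was 4286 and 4062 in untreated BCR/ABL, 4078 and 4264 with imatinib, 4200 and 4114 with DFC+BCI, and 4400 and 4178 with imatinib+DFC+BCI. The vector library had a class I sum of 2949 FPKM; the labelled deleted libraries had 3426 FPKM without and 3280 FPKM with imatinib. The lone libraries were thus all below the 8 wild-type BCR/ABL libraries, whose groups overlapped each other. The class II sum was 1284 and 1068 FPKM in untreated BCR/ABL, 1078 and 1240 with imatinib, 1046 and 1003 with DFC+BCI, and 1107 and 1006 with imatinib+DFC+BCI. It was 2027 FPKM in the vector library, above all others, and 1019 and 1139 FPKM in the labelled deleted libraries. The class II sum per class I sum was 0.687 in the vector library and 0.241 to 0.347 in the other libraries. B2m made up 54.4% to 63.2% of the class I sum and Cd74 45.4% to 51.4% of the class II sum.

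**Figure D2:**
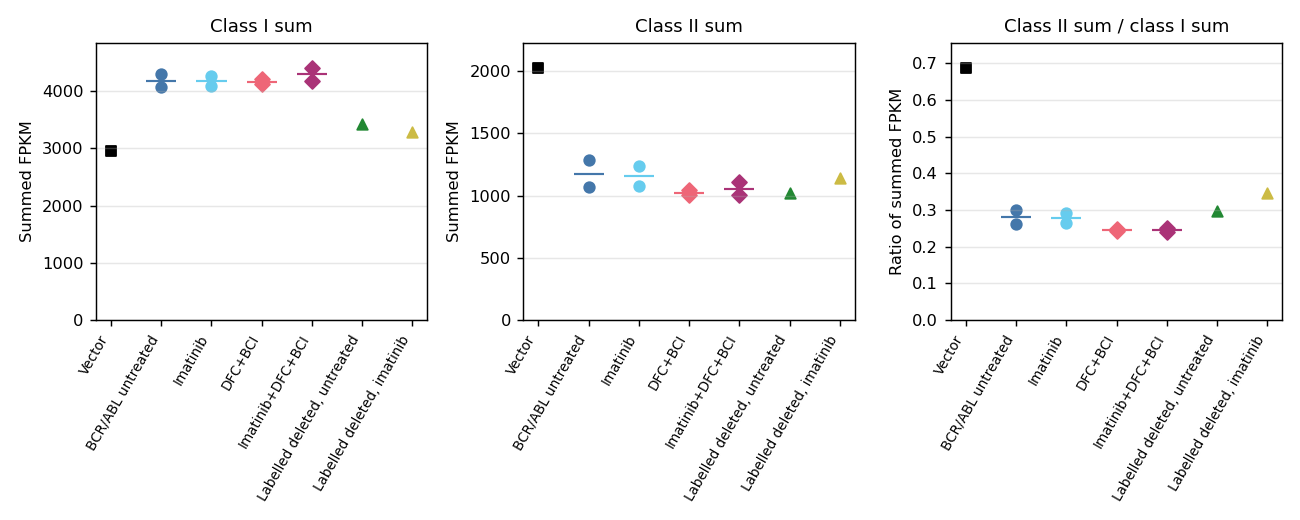
Summed FPKM of class I members (left) and class II members (middle) and the ratio of the class II to the class I sum (right), 1 symbol per library, with a line at the mean where a group has 2 libraries; all axes start at 0. The vector library has the lowest class I sum, 2949 FPKM, and the highest class II sum, 2027 FPKM.

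Imatinib left no member past the test. Of the 31 tested members 0 were higher and 0 lower than in untreated BCR/ABL (limma, Benjamini-Hochberg over 11442 genes, adjusted p under 0.05), where 0.481% of all genes were higher and 1.63% lower. The lowest adjusted p of the 31 was that of H2-K2, which GENCODE lists as a transcribed unprocessed pseudogene of class I. H2-K2 had 3.32 and 2.65 FPKM in untreated BCR/ABL and 4.12 and 5.57 FPKM with imatinib. Its log2 fold change of 0.55 ± 0.13 (SE) did not pass (limma adjusted p = 0.101). The median log2 fold change was 0.015 over the 16 class I members and -0.040 over the 9 class II members, against -0.0060 over all genes. For Ciita it was -0.11, with a 95% interval from -0.36 to 0.13, for H2-Aa 0.060 with -0.087 to 0.21, and for H2-K1 -0.017 with -0.33 to 0.30, so changes within these bounds could not be seen with 2 libraries a group. Among the 12 interferon and class I regulators, 1 fell with imatinib: Socs1, a feedback inhibitor of cytokine receptor signalling, had 80.1 and 63.9 FPKM without and 13.9 and 17.1 FPKM with the drug (log2 fold change -2.14 ± 0.16 SE, limma adjusted p = 0.00163).

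With DFC+BCI, Ciita, 3 class II genes, Tapbp and the non-classical class I genes H2-T24 and H2-T9 fell, and H2-Q4, H2-Q9 and the pseudogenes H2-K2 and H2-Q5 rose, while H2-K1, H2-D1 and B2m did not pass the test. Of the 31 tested members 4 were higher and 7 lower than in untreated BCR/ABL (limma, Benjamini-Hochberg), that is 11 of 31, beside 17.8% of all genes higher and 18.4% lower (36.3% either way). The share of members called was thus near that of all genes. By class, 0 of 9 class II members were higher and 3 lower. All 9 fold changes were below 0, with a median of -0.28 on the log2 scale, beside 6274 of all 11442 genes below 0. The 9 members share their libraries. Leaving out the first untreated library moved the log2 ratio of the class II sum from -0.20 to -0.060. Of the 16 class I members 4 were higher and 2 lower, with a median of 0.15. The median over all genes was -0.035. All fold changes are of log2(FPKM + 1), which understates the change of genes with low values.

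Ciita had 2.01 and 1.87 FPKM with DFC+BCI against 5.20 and 4.83 FPKM without, and both treated libraries lay below both untreated ones. Its log2 fold change was -1.03 ± 0.10 (SE, n = 2 per group, limma adjusted p = 0.000427). H2-Aa had 184.9 and 180.3 FPKM against 255.9 and 237.2 FPKM, again without overlap, a log2 fold change of -0.43 ± 0.062 (limma adjusted p = 0.00215). The other chain of the same H2-A molecule, H2-Ab1, had 171.4 and 160.5 FPKM against 211.1 and 162.8 FPKM, which overlap (-0.16 ± 0.15, limma adjusted p = 0.441). The ratio of H2-Aa to H2-Ab1 was 1.08 and 1.12 with DFC+BCI and 1.21 and 1.46 in untreated BCR/ABL. H2-Eb1 had 85.5 and 79.4 FPKM against 119.7 and 92.1 FPKM; the groups did not overlap and the fold change of -0.34 ± 0.15 did not pass (limma adjusted p = 0.108). Cd74 had 530.7 and 510.4 FPKM against 602.7 and 498.3 FPKM, which overlap (-0.074 ± 0.12, limma adjusted p = 0.656).

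Of the class II accessory chains, H2-Ob was at 0.873 and 0.750 FPKM against 1.44 and 1.29 FPKM, and fell by 0.38 on the log2 scale (SE 0.099, limma adjusted p = 0.0214). H2-DMb2 was at 12.3 and 12.5 FPKM against 16.7 and 14.1 FPKM, and fell by 0.29 (SE 0.094, limma adjusted p = 0.0482). Neither gene's groups overlapped. The call of H2-DMb2 was lost in 9 of 14 alternatives, among them leaving out any single library other than the second untreated one (limma adjusted p 0.0518 to 0.213). The call of H2-Ob was lost without DFC+BCI a (0.0652), DFC+BCI b (0.112) or the first untreated library (0.0997). H2-DMa, H2-DMb1 and H2-Oa had log2 fold changes of -0.23, -0.13 and -0.28 and did not pass.

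The class I gene with the largest log2 fold change was the pseudogene H2-K2 (chr17:33974659-33978827, minus strand, mm10), which had 16.7 and 15.7 FPKM with DFC+BCI against 3.32 and 2.65 FPKM without. Both treated libraries lay above all libraries without DFC+BCI, the vector library with 8.87 FPKM included. Its log2 fold change was 2.11 ± 0.13 (SE, limma adjusted p = 5.09e-05). H2-K2 lies 17189 bases beyond H2-K1 on the same strand, and H2-K1 had 669.7 and 632.9 FPKM against 684.2 and 549.7 FPKM (0.086 ± 0.13, limma adjusted p = 0.655). H2-Q5, a polymorphic pseudogene in GENCODE (chr17:35394126-35397800), had 60.5 and 50.03 FPKM against 23.3 and 22.8 FPKM, with no overlap (1.22 ± 0.14, limma adjusted p = 0.000748). Its upstream neighbour H2-Q4, 8835 bases away on the same strand, had 125.2 and 114.7 FPKM against 96.2 and 82.2 FPKM (0.43 ± 0.11, limma adjusted p = 0.0225). H2-Q9, one of the Qa-2 genes, had 22.7 and 23.5 FPKM against 16.1 and 8.74 FPKM (0.90 ± 0.25, limma adjusted p = 0.0272). The groups of H2-Q4 and H2-Q9 did not overlap either. Both calls were lost without DFC+BCI a, DFC+BCI b or the second untreated library, with limma adjusted p of 0.134, 0.0581 and 0.0973 for H2-Q4 and of 0.107, 0.110 and 0.0636 for H2-Q9.

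Of the H2-T genes, H2-T24, a non-classical chain, was at 8.77 and 9.18 FPKM with DFC+BCI against 17.8 and 19.2 FPKM and fell by 0.97 on the log2 scale (SE 0.10, limma adjusted p = 0.000497). H2-T9 was at 16.3 and 16.4 FPKM against 28.2 and 26.3 FPKM and fell by 0.70 (SE 0.087, limma adjusted p = 0.00113). Neither gene's groups overlapped. H2-T22, H2-T23 and H2-T10 did not pass, with log2 fold changes of -0.20, -0.12 and 0.17. B2m had 2315 and 2312 FPKM against 2441 and 2569 FPKM (-0.11 ± 0.074, limma adjusted p = 0.267) and H2-D1 650.3 and 639.8 FPKM against 664.4 and 531.1 FPKM (0.12 ± 0.13, limma adjusted p = 0.520).

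Tapbp, the bridge between TAP and the empty class I molecule, was at 102.2 FPKM in both DFC+BCI libraries against 143.1 and 125.2 FPKM, with no overlap. It fell by 0.39 on the log2 scale (SE 0.095, limma adjusted p = 0.0181). The call was lost without DFC+BCI a (0.0900), DFC+BCI b (0.0805) or the first untreated library (0.0872). Tap1 had 89.2 and 86.6 FPKM against 99.96 and 82.4 FPKM, and Tap2 58.6 and 59.9 FPKM against 70.7 and 50.5 FPKM. Both sets overlap, with limma adjusted p of 0.768 and 0.960.

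**Figure D3:**
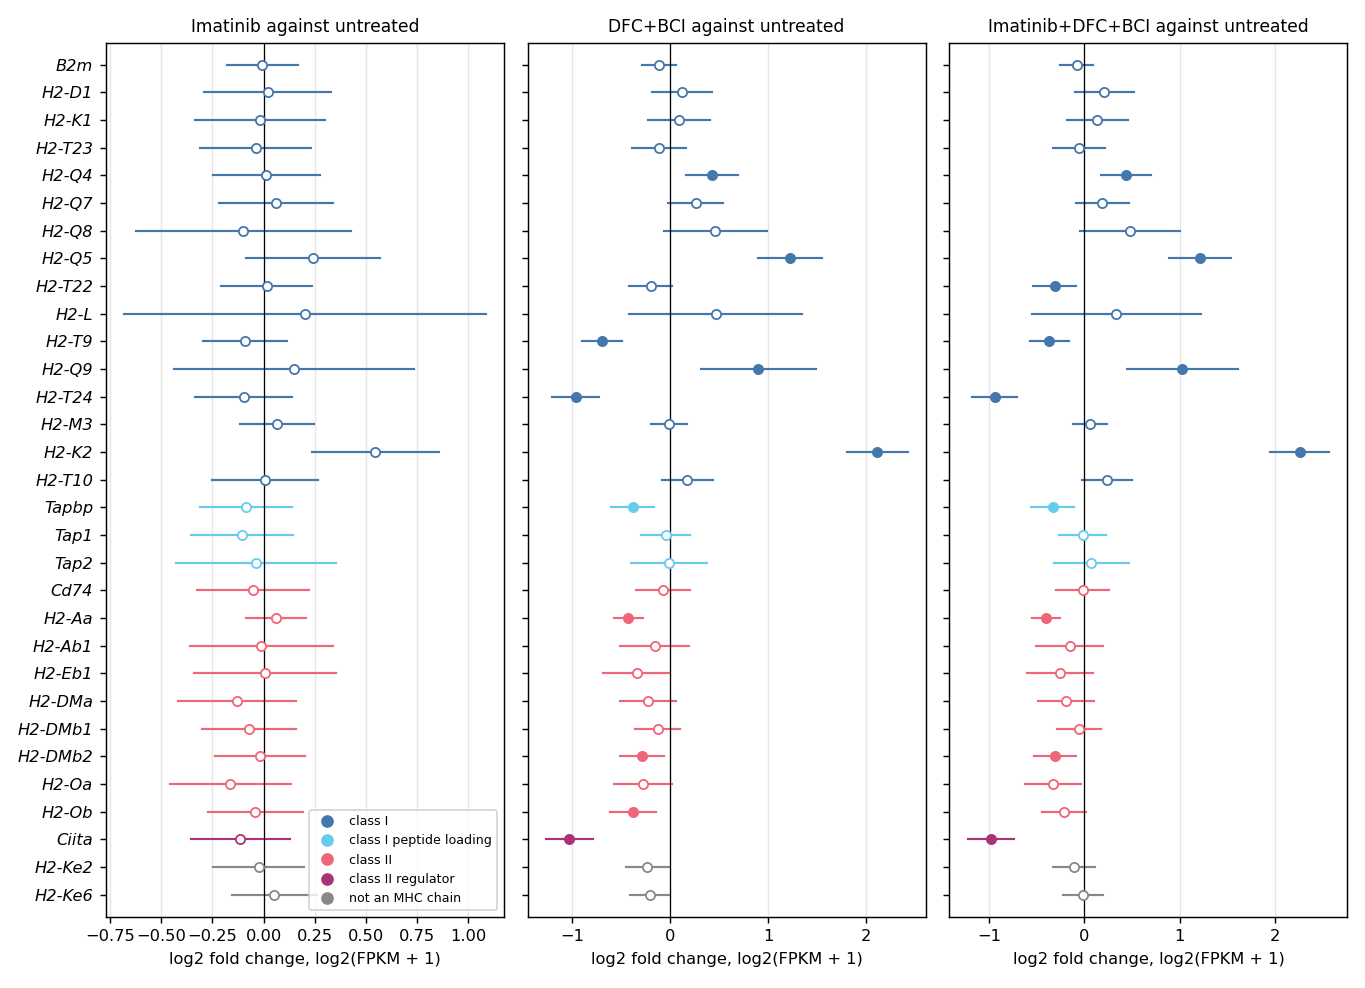
Log2 fold changes of the 31 tested members, on the log2(FPKM + 1) scale, with their 95% confidence intervals from limma, for imatinib, DFC+BCI and imatinib+DFC+BCI against untreated BCR/ABL; filled points have an adjusted p under 0.05 and colours mark the class, and the first panel has a narrower axis than the others. No point is filled for imatinib, and in both DFC+BCI comparisons H2-K2 lies farthest right, at 2.11 and 2.25.

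Other genes of both pathways were read from lists of partners and regulators, whose counts stand beside 17.8% of all genes higher and 18.4% lower with DFC+BCI. Of 6 peptide loading partners 1 rose with DFC+BCI and 3 fell: Hspa5, a chaperone of the endoplasmic reticulum, by 0.28, against falls of the trimming peptidase Erap1 (-0.45), the tapasin relative Tapbpl (-0.40) and calreticulin (Calr, -0.27), all log2 fold changes. Of 5 immunoproteasome genes 0 rose and 2 fell, the proteasome activator subunits Psme1 (-0.37) and Psme2 (-0.47), while the catalytic subunits Psmb8, Psmb9 and Psmb10 did not pass. Of 12 interferon and class I regulators 2 rose and 5 fell. Irf1, an interferon-induced transcription factor known to act on class I and Ciita promoters, rose from 53.4 and 47.5 FPKM to 157.4 and 150.8 FPKM (log2 fold change 1.59 ± 0.087 SE, limma adjusted p = 2.81e-05). Irf9, a subunit of the interferon-activated complex ISGF3, rose by 0.54, Ifngr2, a chain of the interferon gamma receptor, fell by 0.51, and Socs1 fell by 0.99 on the log2 scale. Nlrc5, the class I counterpart of Ciita, had 14.8 and 11.7 FPKM against 14.8 and 15.3 FPKM.

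Of 7 factors of the class II promoter complex 1 rose, the CRE binding protein Creb1 (0.54), and 1 fell, the CCAAT binding subunit Nfya (-0.34). Of 6 processing enzymes of the class II pathway 0 rose and 1 fell, the thiol reductase Ifi30 (-0.28). Of 5 costimulatory genes Icosl (0.46) and Cd40 (0.42) rose and Cd86 (-0.22) fell. Markers of other cells moved in the same libraries: of 4 tested dendritic cell markers 0 rose and 1 fell, Ccr7 (-0.77), of 10 monocyte markers 0 rose and 3 fell, and of 7 stem and progenitor markers 0 rose and 6 fell, Kit (-0.70) and Myb (-0.80) among them. The dendritic list summed to 32.5 to 36.6 FPKM in the 4 libraries with DFC+BCI and 48.0 to 60.1 FPKM in the 4 untreated and imatinib libraries. Ccr7 alone was 21.9 to 23.5 FPKM with and 35.7 to 49.3 FPKM without DFC+BCI, while the values of the other listed genes overlapped. Of the dendritic list Xcr1, Clec9a, Cd209a and Siglech stayed under 0.2 FPKM in those 8 libraries, while Itgax had 5.36 to 7.34, Batf3 3.15 to 5.28 and Zbtb46 1.11 to 1.56 FPKM. The monocyte list summed to 1287 to 1380 FPKM with and 1478 to 1567 FPKM without DFC+BCI, and the stem and progenitor list to 361.7 to 408.4 and 598.3 to 628.6 FPKM. Of the monocyte sum Ly6c2 made up 972.2 to 1027 FPKM with and 1158 to 1211 FPKM without DFC+BCI. Cd14 and Fcgr1 did not overlap either, while the other genes of that list did. The part of these markers in the fall of class II genes was not tested.

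With imatinib added to DFC+BCI, Ciita, H2-Aa and H2-T24 were again lower and H2-K2, H2-Q5, H2-Q9 and H2-Q4 again higher than in untreated BCR/ABL. Against untreated BCR/ABL 4 members were higher and 7 lower (limma, Benjamini-Hochberg), beside 17.2% of all genes higher and 15.6% lower. This comparison shares the untreated libraries with the previous one. Ciita had 2.14 and 1.94 FPKM with imatinib+DFC+BCI (log2 fold change -0.98 ± 0.10 SE), H2-Aa 190.5 and 182.9 FPKM (-0.40 ± 0.062), and H2-T24 8.45 and 9.94 FPKM (-0.94 ± 0.10). H2-K2 had 18.4 and 17.5 FPKM (2.25 ± 0.13), H2-Q5 51.2 and 58.2 FPKM (1.21 ± 0.14), H2-Q9 25.8 and 24.8 FPKM (1.03 ± 0.25) and H2-Q4 120.5 and 120.7 FPKM (0.44 ± 0.11). The limma adjusted p of these 7 lay between 4.41e-05 and 0.0227. The call of H2-Q4 held in 10 of 14 alternatives and was lost without imatinib+DFC+BCI a (0.0838), imatinib+DFC+BCI b (0.0923) or the second untreated library (0.102), and that of H2-Q9 held in 11 and was lost without imatinib+DFC+BCI a (0.0744) or b (0.0712). H2-T9 (-0.37), Tapbp (-0.33), H2-T22 (-0.31) and H2-DMb2 (-0.31) also passed, and their calls held in 11, 8, 4 and 5 of 14 alternatives. Leaving out the first untreated library ended all 4 of these calls, with limma adjusted p of 0.0769, 0.145, 0.0911 and 0.178. Other single libraries also ended them: imatinib+DFC+BCI b for H2-T9 and Tapbp, either DFC+BCI library for Tapbp, every wild-type BCR/ABL library but imatinib+DFC+BCI b for H2-T22, and every one but the second untreated for H2-DMb2. H2-Ob, at 1.18 and 0.908 FPKM, did not pass here (limma adjusted p = 0.143).

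Against imatinib alone, a comparison that has no library in common with DFC+BCI against untreated, imatinib+DFC+BCI had 4 members higher and 5 lower, beside 18.6% and 16% of all genes (limma, Benjamini-Hochberg). H2-K2 had a log2 fold change of 1.71 ± 0.13 (SE), H2-Q5 0.97 ± 0.14, H2-Q9 0.88 ± 0.25 and H2-Q4 0.42 ± 0.11. Ciita had -0.87 ± 0.10, H2-T24 -0.84 ± 0.10, H2-Aa -0.46 ± 0.062, H2-T22 -0.33 ± 0.094 and H2-T9 -0.28 ± 0.087. Of the 11 members called for DFC+BCI against untreated 8 were called here in the same direction, which is 72.7% of those 11 and 88.9% of the 9 called here. Over all genes the shared calls were 67.9% and 71.2% of the respective lists. Both comparisons come from the same fit and share each gene's estimated spread, so their calls are not independent. The calls of H2-T9 and H2-T22 were the least stable, held in 5 and 7 of 14 alternatives. H2-T9 was lost without any 1 wild-type BCR/ABL library other than imatinib+DFC+BCI a, and H2-T22 without either DFC+BCI library, either imatinib library or imatinib+DFC+BCI a. H2-Q4 held in 10 and H2-Q9 in 8 of 14: both were lost without imatinib a (limma adjusted p 0.120 and 0.152) and without imatinib+DFC+BCI a (0.0885 and 0.109) or b (0.0940 and 0.0995), and H2-Q9 also without either DFC+BCI library (0.0560 and 0.0562). With imatinib added to DFC+BCI 0 of 31 members passed the test (limma), and 0 passed the test of whether the effect of imatinib differed with DFC+BCI. Of all genes 0.00874% were higher and 0.105% lower with imatinib added to DFC+BCI (0.114% either way), and 0.0874% and 0.0612% passed the test of the difference upward and downward (0.149% either way).

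**Figure D4:**
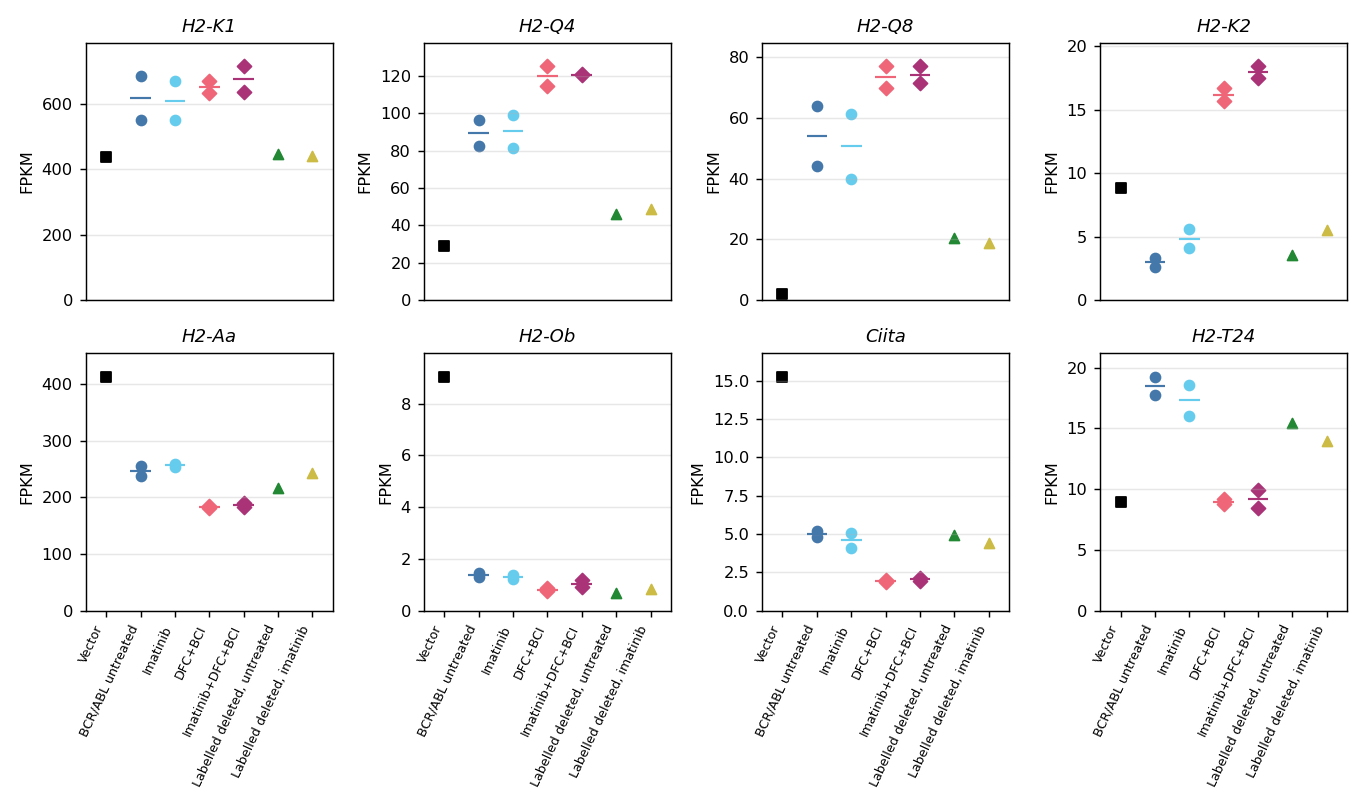
FPKM of 8 members in every library, by group, with a line at the mean of the 2 libraries where a group has them; axes start at 0. H2-K2 is highest and Ciita and H2-T24 low in the 4 libraries with DFC+BCI, and in the vector library H2-Q8 is lowest, at 2.05 FPKM, and H2-Aa, H2-Ob and Ciita are highest, at 412.9, 9.05 and 15.3 FPKM.

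BCR/ABL cells had more class I and less class II RNA than the vector library, a comparison with 1 library on the vector side and so no replicate check and no p-value. A member was called where every library of the other group was at least 2-fold away on the log2(FPKM + 1) scale and the higher group reached 5 FPKM. In untreated BCR/ABL 5 members were higher and 3 lower than in vector, beside 3.32% of all genes higher and 4.68% lower (8.01% either way). The class I sum was 1.42 times as high as in vector and the class II sum was 1.72 times as high in vector. Of 16 class I members 14 had a positive difference (median 0.77 on the log2 scale), and of 9 class II members 8 had a negative one (median -0.88). Over all 11442 genes 5717 differences were positive and 5711 negative, with a median of 0.

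The called members that were higher in BCR/ABL all came from the H2-Q region. H2-Q8 had 2.05 FPKM in vector and 64.0 and 44.0 FPKM in untreated BCR/ABL, a 26.4-fold ratio of means. H2-Q7 had 5.05 FPKM in vector and 68.2 and 57.1 FPKM (12.4-fold), and H2-Q9 1.39 FPKM in vector and 16.1 and 8.74 FPKM (8.98-fold). H2-Q4 was 3.06-fold and H2-Q5 2.90-fold higher, with 29.2 and 7.92 FPKM in vector. Every wild-type BCR/ABL library, with or without drugs, lay above the vector library for these 5 genes. The values of H2-Q4, H2-Q7, H2-Q8 and H2-Q9 are given per library because their values were seen to stand out. Summed over H2-Q4 to H2-Q9, these genes made up 3.80% of class I heavy chain FPKM in vector and 14.4% to 14.5% in untreated BCR/ABL, and 18.2% to 19.3% with DFC+BCI. By contrast H2-D1 had 533.6 FPKM in vector, within the 664.4 and 531.1 FPKM of untreated BCR/ABL, and H2-T23 had 100.02 FPKM, within 112.6 and 93.2 FPKM. H2-K1 had 438.1 FPKM in vector against 684.2 and 549.7 FPKM.

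On the class II side the largest ratio was that of H2-Ob, at 9.05 FPKM in vector and 1.44 and 1.29 FPKM in untreated BCR/ABL (6.63-fold lower in BCR/ABL). Ciita was at 15.3 FPKM in vector against 5.20 and 4.83 FPKM (3.05-fold). Cd74 was at 1006 FPKM in vector, H2-Aa at 412.9, H2-Ab1 at 287.2 and H2-Eb1 at 167.2 FPKM. Each of those 4 exceeded all 8 wild-type BCR/ABL libraries, though not by the 2-fold required. H2-DMb2 was the class II member that went the other way, with 12.9 FPKM in vector against 16.7 and 14.1 FPKM. H2-K2, the pseudogene raised by DFC+BCI, was at 8.87 FPKM in vector against 3.32 and 2.65 FPKM (2.97-fold lower in BCR/ABL). Of the partner genes, Nlrc5 had 9.40 FPKM in vector against 14.8 and 15.3 FPKM, and the class II protease cathepsin S (Ctss) 963.2 against 331.0 and 350.7 FPKM.

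Markers of other cells also differed in the vector library. Siglech, a marker of plasmacytoid dendritic cells, was at 8.80 FPKM in vector and at 0.0678 FPKM or less elsewhere, Flt3 at 40.9 FPKM against 1.25 to 2.37, Cx3cr1 at 30.1 against 0.152 to 1.51, and Csf1r at 265.8 against 69.3 and 63.6 in untreated BCR/ABL. The dendritic list as a whole summed to 31.7 FPKM in vector and 32.5 to 60.1 FPKM in the 8 wild-type BCR/ABL libraries, the monocyte list to 1423 and 1287 to 1567 FPKM, and the B cell list to 23.8 and 4.08 to 4.88 FPKM. Ly6c2, the largest part of the monocyte sum, was lower in vector, at 610.9 FPKM against 972.2 to 1211 FPKM in those 8 libraries. Csf1r, Emr1, Cd68, Cx3cr1, C1qa, C1qb and Cd14 of that list were higher in vector than in all 8, and Mrc1 was lower. In the dendritic list Ccr7 was lower in vector, at 9.42 FPKM against 21.9 to 49.3 FPKM. Batf3 and Zbtb46 of the dendritic list were also lower in vector than in all 8. Siglech, Itgax, Clec9a and Cd209a were higher in vector than in all 8, and Xcr1 overlapped. Of the B cell list 5 of 8 genes never reached 1 FPKM in any library, and Cd79b was at 14.0 FPKM in vector. The mast cell and basophil list summed to 1795 FPKM in vector and 443.0 to 588.1 FPKM in those 8 libraries. The part of these cells in the class II levels of the vector library was not tested.

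**Figure D5:**
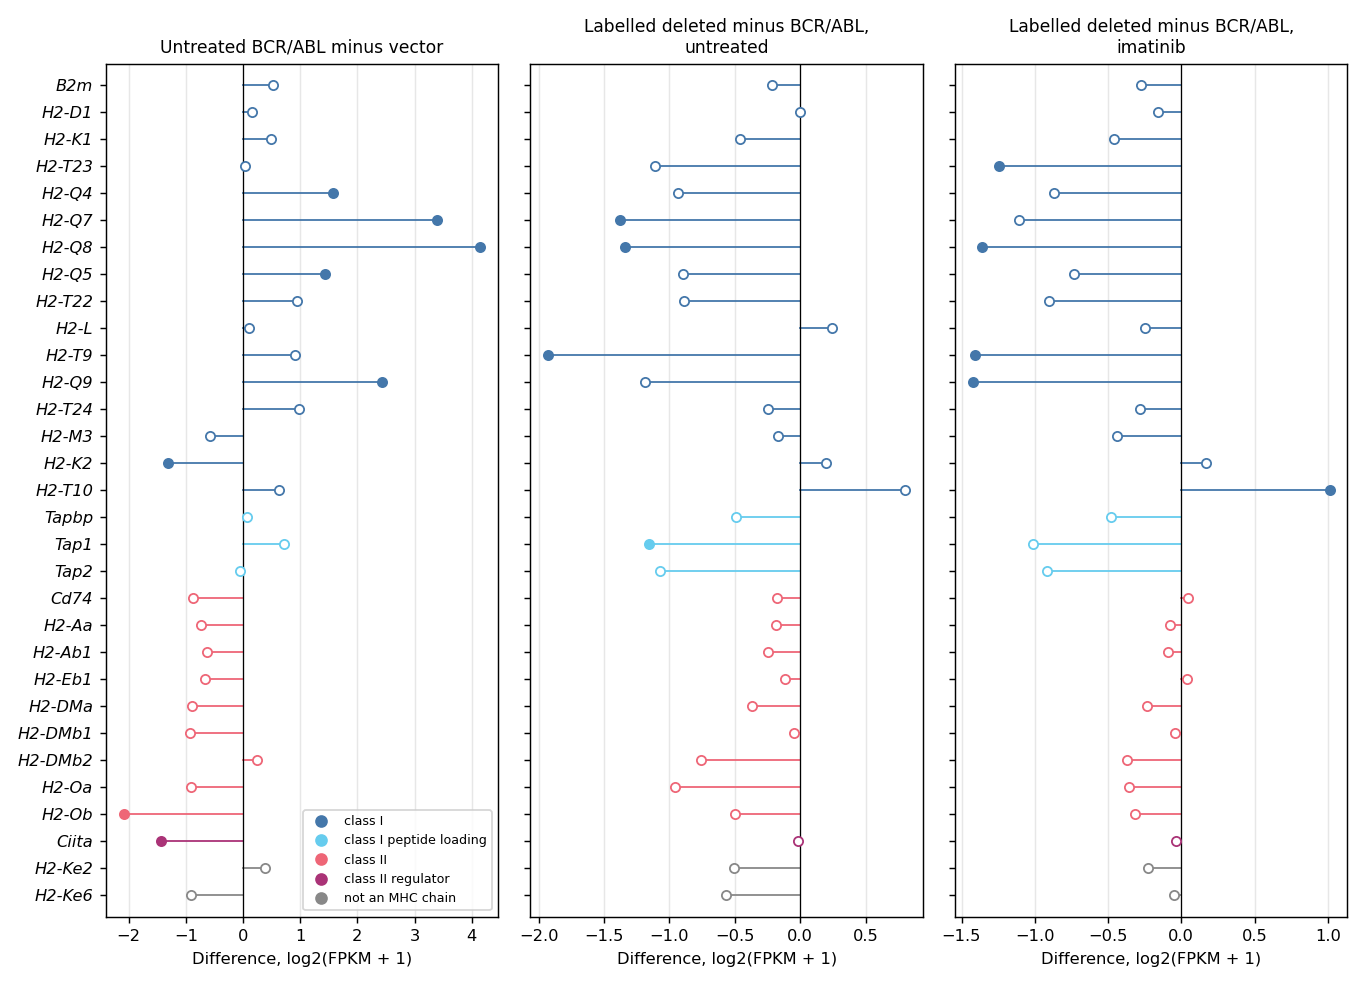
Differences of the 31 tested members on the log2(FPKM + 1) scale for the comparisons that involve a lone library: untreated BCR/ABL minus vector, and labelled deleted minus wild-type BCR/ABL without and with imatinib; filled points pass 2-fold against each library and 5 FPKM, and no error can be given. H2-Q8 reaches 4.15 on the left and lies at -1.34 and -1.36 in the other panels.

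The library labelled c-Fos-/-Dusp1-/- had lower levels of 3 of 16 class I members and of Tap1 than wild-type BCR/ABL cells, a comparison with 1 library on the labelled deleted side and so with no replicate check. Without imatinib 0 members were higher and 4 lower than in untreated BCR/ABL by the same rule, beside 3.42% of all genes higher and 2.02% lower (5.44% either way). H2-T9 was at 6.42 FPKM against 28.2 and 26.3 FPKM (4.24-fold lower), H2-Q7 at 23.4 FPKM against 68.2 and 57.1 (2.67-fold), H2-Q8 at 20.4 against 64.0 and 44.0 (2.65-fold), and Tap1 at 40.1 against 99.96 and 82.4 FPKM (2.27-fold). Quantile normalization left 2 of these 4 calls. Of the 16 class I members 13 had a negative difference and 3 a positive one, H2-T10 (7.02 FPKM against 3.90 and 3.32), H2-L (0.25 on the log2 scale) and H2-K2 (0.20). Over all 11442 genes 7053 differences were negative. The median log2 difference was -0.67 over 16 class I members, -1.07 over the 3 loading genes and -0.25 over 9 class II members, against -0.13 over all genes. H2-D1 had 592.2 FPKM, between the untreated BCR/ABL libraries, H2-K1 445.8 FPKM, below both, and Tap2 27.9 FPKM, below 70.7 and 50.5. Ciita had 4.93 FPKM, between 5.20 and 4.83, and H2-Aa 217.1 FPKM, below 255.9 and 237.2.

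With imatinib, the labelled deleted library had 1 member higher and 4 lower than wild-type cells with imatinib, beside 1.88% and 1.28% of all genes (3.16% either way). H2-T10 had 8.33 FPKM against 3.60 and 3.64 FPKM in the imatinib libraries (2.30-fold higher). H2-Q9 was at 4.35 FPKM against 11.4 and 15.6 (3.10-fold lower), H2-T9 at 8.97 against 24.5 and 26.4 (2.84-fold), H2-Q8 at 18.6 against 39.9 and 61.3 (2.72-fold), and H2-T23 at 41.5 against 93.0 and 106.9 FPKM (2.41-fold). Class I had a median log2 difference of -0.59, the loading genes -0.91 and class II -0.089, against -0.074 over all genes. Both comparisons use libraries of cells from other mice than the wild type, so deletion, strain background and batch cannot be told apart. Between the labelled deleted libraries with and without imatinib 0 of 31 members passed the fold rule, beside 0.105% of all genes higher and 0.271% lower.

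Values of the same members after DFC+BCI and under the label of deletion are set side by side here. They were not tested against each other, since the labelled deleted group has 1 library and both use the untreated libraries. The pseudogene H2-K2 had 16.7 and 15.7 FPKM after DFC+BCI, against 3.56 FPKM in the untreated labelled deleted library. Ciita was at 2.01 and 1.87 FPKM and at 4.93 FPKM, and H2-Q5 at 60.5 and 50.03 FPKM and at 11.9 FPKM. H2-T24 was at 8.77 and 9.18 FPKM and at 15.5 FPKM, and Tap1 at 89.2 and 86.6 FPKM and at 40.1 FPKM. H2-T9 was lower than in untreated BCR/ABL in both, at 16.3 and 16.4 FPKM after DFC+BCI, against 6.42 FPKM in the labelled deleted library. Tapbp (94.9 FPKM in the labelled deleted library), H2-Aa (217.1), H2-DMb2 (8.64), H2-Ob (0.670) and H2-T24 were also below both untreated libraries in both. H2-Q4 (46.0 FPKM), H2-Q5 and H2-Q9 (4.67 FPKM) rose with DFC+BCI and were below both untreated libraries in the labelled deleted one. H2-K2 was above both untreated libraries in both, and Ciita lay between them in the labelled deleted library. Irf1 had 157.4 and 150.8 FPKM with DFC+BCI and 23.98 FPKM in the labelled deleted library.

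Replicates bore on these values. In the untreated group 28 of 31 members were higher in the first library than in the second, whereas 58.6% of all genes were. With imatinib 28 of 31 members were higher in library b than in a, whereas 57.6% of all genes were. The class II sum differed by 0.27 on the log2 scale between the untreated libraries and by 0.20 between the imatinib libraries, against 0.060 and 0.14 between those with DFC+BCI and imatinib+DFC+BCI. The column totals moved with this, at 527875 and 489904 FPKM in the untreated libraries and 489112 and 529427 FPKM in imatinib a and b. No member differed 2-fold between replicates on the log2(FPKM + 1) scale in the 4 replicated groups.

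As a description over the 11 libraries, which share their groups, the gene whose level followed the mean of the class I members most closely was Magohb, with a Pearson correlation of 0.980 on the log2 scale, followed by Txnl1 (0.973) and Nsl1 (0.970). Bst2, an interferon-induced membrane protein, was also among the 8 closest (0.968), with 107.6 FPKM in vector and a mean of 237.7 FPKM in untreated BCR/ABL. The genes closest to the class II mean were Cbx6 (0.985), Pygb (0.985), Egln1 (0.980) and Limd2 (0.979). Gp9 and Gp1ba, subunits of the platelet receptor for von Willebrand factor, were among those 8 (0.976 and 0.974), at 20.7 and 19.1 FPKM in vector and means of 3.95 and 2.31 FPKM in untreated BCR/ABL. The vector library is an extreme point in each of these.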

How the data were processed

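RNA-seq libraries (stranded mRNA kit, per the labels' protocols) were aligned with TopHat to mm10 and quantified with Cufflinks, per the submitters' processing notes; versions, and whether strand was used, are not given in the sources used here. The deposited values were taken as FPKM from their form, since the file header names no unit. Depth is unknown and values of 0 can be failed estimates. Columns were matched to groups by name; 0 columns were left unused. The 11442 genes that reached 1 FPKM in 2 or more libraries were tested as log2(FPKM + 1) with limma 3.58.1 (R 4.3.3; trend, 2-sided, Benjamini-Hochberg, adjusted p under 0.05) in 1 fit of 11 libraries with 7 group coefficients (4 residual and 3.2 prior degrees of freedom), tested on simulated data. Lone libraries were compared by a fold of 2 and 5 FPKM, with no p. Sums are of FPKM. Values of single libraries were planned for the classical chains, B2m, Cd74, Ciita and the loading genes. Up to 4 further members per class were added by smallest adjusted p. Not all 11 values are printed for each gene, and other lists give up to 4 called genes. Members and lists were chosen with earlier results of these data known. Positions and shared 50-base stretches come from GENCODE vM21 (46 of 50 members), promoters from RefSeq GRCm38.p6. Promoter motif spellings were changed after seeing matches. Alternatives were pseudocounts of 0.1 and 0.5, no filter, a mean of 5 FPKM, quantile normalization, the compared groups alone, each library left out, and a fold of 1.5.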

Additional observations from a re-analysis of the deposited data

How the results depend on the processing

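Of 2586 results for single members under alternatives 2488 kept their direction and side of the threshold, 84 lost and 14 gained a call and 0 reversed; 16 of 31 called results were called in every alternative. No paired analysis was possible because the columns carry letters or no number in place of the labels' replicate numbers. Without the filter, 2 members were higher in DFC+BCI against untreated, in imatinib+DFC+BCI against untreated and in imatinib+DFC+BCI against imatinib. With the compared groups alone, 3 were lower in the latter comparisons. At a fold of 1.5, 8 members were higher and 9 lower in BCR/ABL than in vector, 1 higher and 12 lower in the labelled deleted untreated library, and 9 lower in that with imatinib. Quantile normalization of the tested genes left 2 lower members in the labelled deleted untreated library and shifted library medians by no more than 0.082 on the log2 scale.

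For the class sums, quantile normalization was run over all 23444 rows and not over the tested genes alone. It moved the log2 ratio of the class I sum against untreated to 0.055 for imatinib, 0.16 for DFC+BCI and 0.15 for imatinib+DFC+BCI. For imatinib+DFC+BCI that ratio was 0.090 against imatinib and -0.015 against DFC+BCI. The class I ratio was 0.37 for BCR/ABL against vector, and -0.42 and -0.52 for the labelled deleted libraries without and with imatinib. The class II ratio moved to -0.057 for DFC+BCI and -0.92 for BCR/ABL against vector. Without B2m the class I ratio was 0.14 for DFC+BCI and 0.20 for imatinib+DFC+BCI against untreated, 0.20 for imatinib+DFC+BCI against imatinib, and -0.40 and -0.46 for the labelled deleted libraries. Without Cd74 the class II ratio of imatinib+DFC+BCI against imatinib was -0.29. The cause was not tested.

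Leaving out 1 library gave 2 to 4 higher and 4 to 10 lower members for DFC+BCI against untreated, 2 to 4 and 3 to 6 for imatinib+DFC+BCI against untreated, and 2 to 5 and 3 to 5 against imatinib. It gave 5 to 6 higher and 3 to 7 lower members for BCR/ABL against vector, and 4 to 9 and 4 to 8 lower members in the labelled deleted libraries without and with imatinib. The log2 ratio of the class II sum then ranged from -0.15 to 0.12 for imatinib, -0.33 to -0.060 for DFC+BCI, -0.28 to -0.015 for imatinib+DFC+BCI, -0.92 to -0.66 for BCR/ABL against vector and -0.33 to -0.068 for the labelled deleted untreated library. A group left with 1 library is assumed to vary like the others.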
